A study of Mus musculus with 46 samples.

Results

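The genes described here are 39 neuronal and synaptic genes, followed across 46 mouse synovial sarcomas by RNA-seq. They were chosen in 2 blocks from the 56980 genes counted in tumors expressing SS18::SSX2 and the 56941 counted in tumors expressing SS18::SSX1. The first block holds 11 genes (Ina, Kcns1, Lrrtm1, Pcp4, Cadm2, Cadps, Cacna2d3, Gabrg3, Nxph4, Cartpt and Lypd6b), and the second holds 28 widely used neuronal genes, from neurofilaments and tubulin to granins and the ELAV-like proteins. Some of them were picked because they differ after disruption of Pbrm1 or Arid1a, and the SS18::SSX2 tumors hold both comparisons, so the folds there are given as a description with no p-value. In all, 10 of the 39 are on the 185-gene list of sarcomagenesis activated transcription (SAT) used in the study: Nxph4, Lypd6b, Kcns1, Ina, Scg2, Pcp4, Lrrtm1, Gabrg3, Syt1 and Cartpt. None is on the list of genes with maintained active transcription.

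Neurons build long processes from microtubules and intermediate filaments, release transmitter from vesicles through SNARE and calcium-sensing proteins, store peptides and granins in dense-core granules, and hold synapses together with paired adhesion molecules. Outside the nervous system many of these genes are kept silent by the repressor REST, which binds a DNA element called RE1, while proneural factors of the basic helix-loop-helix family switch them on in newly born neurons. Synovial sarcoma is a soft-tissue cancer driven by fusion of SS18, a subunit of the BAF chromatin-remodeling complexes, to an SSX protein. PBRM1 belongs to the PBAF form of these complexes, whereas the canonical form, CBAF, carries either ARID1A or ARID1B.

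Every mouse carried a human fusion allele at Rosa26, either SS18::SSX2 (hSS2) or SS18::SSX1 (hSS1), switched on by injecting TATCre protein into the hindlimb at 8 days of life. The hSS2 tumors comprised 13 controls, 8 tumors with homozygous floxed Pbrm1 (Pbrm1-fl), 8 with homozygous floxed Arid1a (Arid1a-fl) and 8 with homozygous floxed Arid1b (Arid1b-fl), and the hSS1 tumors comprised 5 controls and 4 Pbrm1-fl. Controls were littermates labelled with the fusion alone, and whether any carried a single floxed allele is not given in the sources used here. The study used both sexes on a mixed CB57Bl/6-svJ strain at 2 to 6 months of age, and each fresh frozen tumor gave 1 library after removal of ribosomal RNA. TATCre reaches any cell at the injection site, and cells of the host that never recombined keep the floxed gene intact and remain in the RNA.

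Libraries held 10137668 to 21294657 counted reads. Levels are given as CPM, the gene's reads scaled to the library total, and 3 reads, the limit that a count of 0 allows, corresponded to 0.141 to 0.296 CPM. Tle1, a marker of synovial sarcoma, was at 163 CPM or more in every tumor. Pbrm1 was lower in all 8 hSS2 Pbrm1-fl tumors (94.1 to 134 CPM) than in any hSS2 control (180 to 324 CPM). In hSS1 Pbrm1-fl tumors it was 215, 253, 98.2 and 224 CPM for replicates 1 to 4 against 278 to 356 CPM in controls. Arid1a was 239 to 288 CPM in Arid1a-fl tumors against 254 to 593 CPM in hSS2 controls, where the lowest control was the library labelled hSS2 control replicate 9, and Arid1b overlapped between Arid1b-fl tumors (110 to 348 CPM) and controls (230 to 678 CPM). Skeletal muscle markers summed to between 19.6 and 98900 CPM across hSS2 tumors, and in such bulk samples fewer cells of a type and less RNA per cell cannot be told apart. The mouse number in the labels fell in 1 range for each floxed group (2000 and over for hSS2 Pbrm1-fl, under 1000 for Arid1a-fl, 1000 to under 2000 for the others), so that range and floxed gene cannot be told apart except against the controls of the same range, 4 or 5 in hSS2 and 3 in hSS1.

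**Figure D1:**
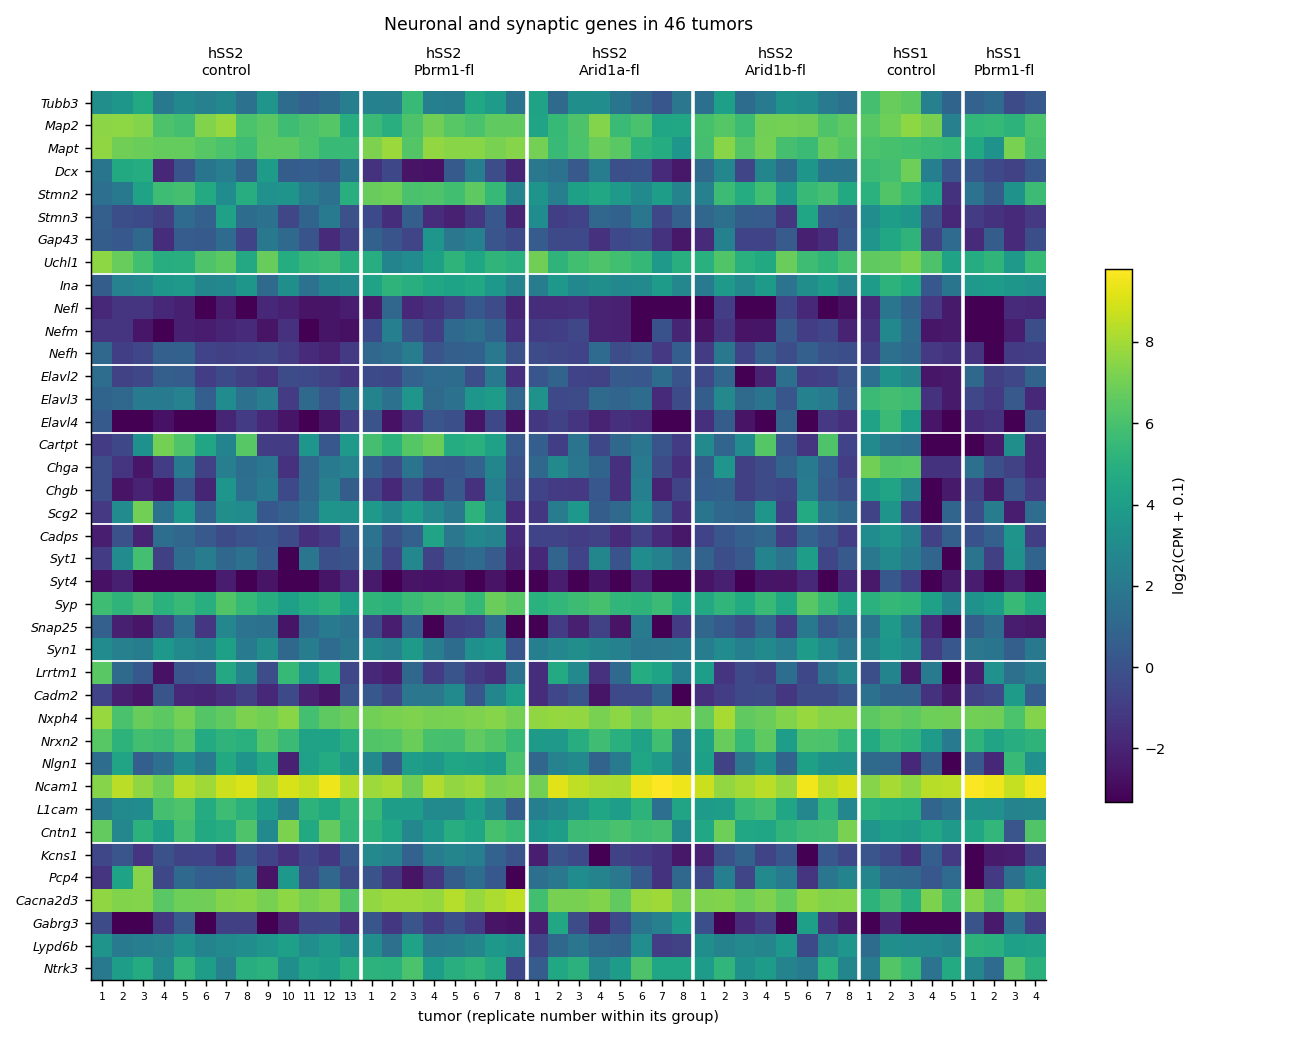
Level of each of the 39 genes (rows, by role) in each of the 46 tumors (columns, by group), as log2(CPM + 0.1). Most rows vary from tumor to tumor within every group, and hSS1 controls 1, 2 and 3 are high for Tubb3, Dcx, Elavl3, Elavl4 and Chga together.

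The level per kilobase of exon (RPKM), the only scale on which these genes are compared with each other, spread widely. Nxph4, a secreted ligand of neurexins, had the highest median over the 46 tumors at 80.1 RPKM. Ncam1, the neural cell adhesion molecule also found on muscle and natural killer cells, followed at 37.6 RPKM, then Uchl1, a neuronal deubiquitinase, at 23.3 RPKM, and Cacna2d3, an auxiliary subunit of voltage-gated calcium channels, at 18.3 RPKM. The microtubule-binding protein tau, encoded by Mapt, and the synaptic vesicle protein synaptophysin, encoded by Syp, completed the first 6 at 10.5 and 7.26 RPKM. At the other end stood Syt4, a synaptotagmin, at 0.0155 RPKM. In the 37 hSS2 tumors Syt4 did not exceed 0.212 CPM, the light neurofilament Nefl 1.94 CPM and Elavl4 1.72 CPM.

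The tests across all genes kept 20083 genes in hSS2 and 17786 in hSS1. In hSS2, 36 of the 39 passed this filter on low counts, all but Nefl, Syt4 and Elavl4. In hSS1, 31 passed, with Kcns1, Gabrg3, Nefm, Nefh and Stmn3 missing as well. Because a gene can pass through the group in which it is high, the counts below refer to the genes tested.

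The most concentrated neuronal program in the series was found in 3 hSS1 control tumors, replicates 1, 2 and 3. Tubb3, the neuron-specific beta-tubulin, was at 60.3, 106 and 88.4 CPM there, at 5.24 and 1.74 CPM in controls 4 and 5, and at 1.66, 2.27, 0.691 and 1.16 CPM in Pbrm1-fl replicates 1 to 4. Dcx, a microtubule-binding protein of migrating young neurons, was at 51.4, 58.9, 118, 4.95 and 1.01 CPM in controls 1 to 5 and at 1.07, 0.635, 0.493 and 1.07 CPM in the 4 Pbrm1-fl tumors. Gap43, a growth cone protein, read 11.2, 23.4, 36.9, 0.495 and 2.29 CPM in the controls and 0.195, 1.36, 0.197 and 0.802 CPM in Pbrm1-fl. The microtubule destabilizer Stmn3 was at 8.47, 16.2, 12.2, 0.849 and 0.183 CPM in the controls and between 0.197 and 0.390 CPM in Pbrm1-fl. For all 4 genes the same 3 controls were far above the remaining controls, and controls 4 and 5 were much nearer to the Pbrm1-fl tumors.

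RNA-binding proteins of the ELAV-like family, which stabilize neuronal transcripts, stood with them. Elavl3 was at 48.7, 59.5, 50.5, 0.283 and 0.0917 CPM in controls 1 to 5 and at 0.585, 0.363, 1.18 and 0.178 CPM in Pbrm1-fl. Elavl4 was at 18.9, 49.6 and 16.9 CPM in controls 1 to 3, at 0.0708 and 0 CPM in controls 4 and 5, and at most 0.802 CPM in Pbrm1-fl. Elavl2 was lower, at 2.67, 10.5 and 6.08 CPM in controls 1 to 3 and at most 1.95 CPM in the other 6 hSS1 tumors. All 3 family members were thus highest in the same 3 tumors.

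The granins, acidic proteins that fill dense-core secretory granules of neurons and neuroendocrine cells, were divided. Chga was at 128, 77.3 and 84.6 CPM in controls 1 to 3, at 0.283 and 0.275 CPM in controls 4 and 5, and at 2.73, 0.817, 0.493 and 0.178 CPM in Pbrm1-fl. Chgb was at 13.9, 19.8, 6.61, 0 and 0.0917 CPM in the controls and at 0.487, 0.0908, 0.986 and 0.357 CPM in Pbrm1-fl. Scg2, secretogranin II, did not follow them, at 0.535, 10.8, 0.522, 0 and 1.83 CPM in controls 1 to 5 and 0.780, 4.45, 0.0986 and 2.50 CPM in Pbrm1-fl. The deubiquitinase Uchl1 overlapped more than Chga, at 96.5, 99.5, 144, 68.9 and 19 CPM in controls and 28, 37.9, 13.5 and 43.3 CPM in Pbrm1-fl. Control 5 was within the Pbrm1-fl range for Uchl1, and the other 4 controls were above it.

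Set beside the hSS2 tumors, which were counted in a separate table, controls 1, 2 and 3 exceeded every one of the 37 hSS2 tumors for 6, 13 and 8 of the 39 genes. Controls 4 and 5 did so for 0, and the Pbrm1-fl replicates 1 to 4 for 1, 1, 1 and 0. Of the 17782 genes compared in this way, 8.60%, 7.39% and 11.9% exceeded every hSS2 tumor in controls 1, 2 and 3, 5.72% and 6.81% in controls 4 and 5, and 8.86%, 9.72%, 7.05% and 3.48% in Pbrm1-fl replicates 1 to 4. These 17782 had passed the filter on low counts in hSS1, whereas all 39 were counted. Elavl4 in controls 1, 2 and 3, Syt4 in controls 2 and 3, and Nefl and Nefm in control 2 were counted without having passed it. Tubb3, Dcx, Elavl3, Elavl4 and Chga did so in all 3 of these controls. The highest hSS2 values were 47.2 CPM for Tubb3, 27.9 CPM for Dcx, 14.6 CPM for Elavl3 and 11.3 CPM for Chga.

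**Figure D2:**
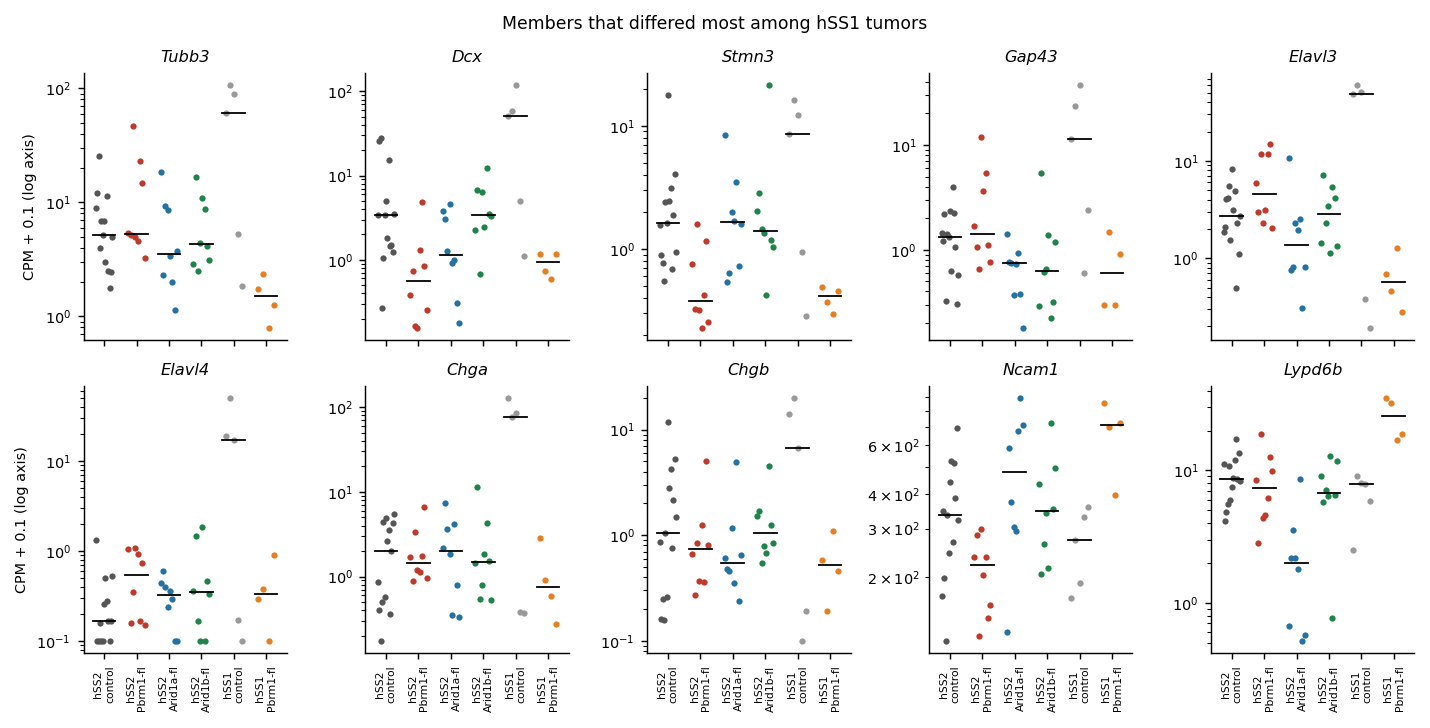
CPM + 0.1 on a log axis for 10 genes, each point 1 tumor and each black line the median of its group, with the 4 hSS2 groups and the 2 hSS1 groups side by side. In the hSS1 controls, Tubb3, Dcx, Stmn3, Gap43, Elavl3, Elavl4, Chga and Chgb split into 3 high and 2 low tumors, whereas Ncam1 and Lypd6b are higher in every hSS1 Pbrm1-fl tumor than in every hSS1 control.

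Transcription factors that act early in neurogenesis were read in the same tumors from a list of 22 neuronal gene regulators, of which those named here were chosen after their values were seen. The proneural factor Neurod1 was at 62.8, 75.7 and 53.2 CPM in hSS1 controls 1 to 3, at 0.354 and 0 CPM in controls 4 and 5, and at no more than 6.29 CPM in any hSS2 tumor. Neurog1, another proneural factor, was at 27.1, 51.1 and 46.9 CPM in controls 1 to 3 and at 0.637 and 0.917 CPM in controls 4 and 5. Nhlh1, a helix-loop-helix factor of newborn neurons, was at 66.1, 120 and 117 CPM against 0.0708 and 0.0917 CPM. Rest RNA was at 129, 149, 151, 136 and 166 CPM in the 5 controls and at 153, 136, 116 and 126 CPM in Pbrm1-fl. Its values in controls 1 to 3 overlapped those of the other hSS1 tumors. These are RNA levels of whole tumors, and the part of REST or of the proneural factors in the neuronal pattern was not tested.

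**Figure D3:**
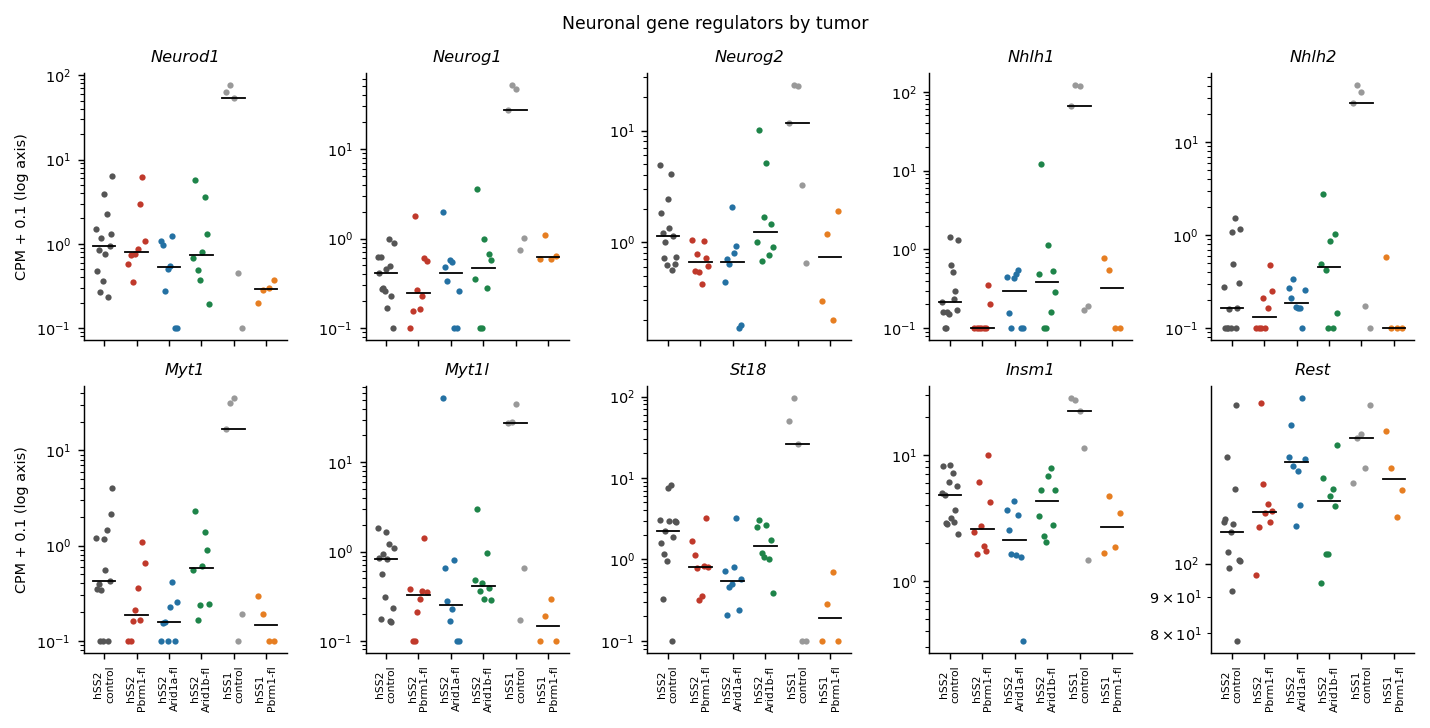
CPM + 0.1 on a log axis for 9 neuronal transcription factors and the repressor Rest, each point 1 tumor and each black line a group median. The hSS1 controls 1 to 3 stand above their group for Neurod1, Neurog1, Nhlh1 and the other factors, and Rest lies in 1 band in both hSS1 groups.

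Markers of other cells were compared with this pattern in the same tumors. Peripheral neuron markers, 16 genes, summed to 72.2, 155, 141, 73.5 and 282 CPM in hSS1 controls 1 to 5 and to 87.5, 55.7, 394 and 75.8 CPM in Pbrm1-fl. Within that list Prph, peripherin, was at 14.9, 44.4, 29.6, 18.2 and 210 CPM in the controls, and made up most of the sum in control 5. Dbh, which makes noradrenaline, was at 0 in controls 1 to 3. Slc17a6, the vesicular glutamate transporter, was at 5.79, 18.3 and 14.1 CPM in controls 1 to 3 and at most 0.183 CPM in the other 6 hSS1 tumors. Schwann cell markers, 14 genes, summed to 268, 143, 240, 62.3 and 58 CPM in the controls and to 90.3, 74.9, 162 and 85.8 CPM in Pbrm1-fl, while the defining Schwann cell factor Sox10 was at 0, 0.0815 and 0 CPM in controls 1 to 3. Skeletal muscle markers summed to 13.1, 4783, 1327, 21.2 and 20.4 CPM in the controls, and the epithelial keratin Krt8 was at 95.8, 38.8, 78.5, 0.212 and 0.0917 CPM. The part of the peripheral neuron, Schwann, muscle and epithelial signals in the neuronal pattern was not tested.

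Promoters of 5 genes that were high together are shown so that they can be read for the elements through which REST and proneural factors are known to find their targets. RefSeq promoters (GRCm38.p6) were matched for 26 of the 39 genes, and the 250 bases before the annotated start are printed 5′ to 3′, with capitals marking matches on either strand to CAGCACC, the left part of RE1, GGACAGC, its right part, CAGATG, an E-box bound by proneural factors, and TATAAA, the TATA box. Tubb3 lies on the plus strand at chr8:123411303-123411552, Elavl3 on the minus strand at chr9:22052024-22052273, Chga on the plus strand at chr12:102554691-102554940, Chgb on the plus strand at chr2:132781392-132781641 and Stmn3 on the minus strand at chr2:181314501-181314750.
Tubb3: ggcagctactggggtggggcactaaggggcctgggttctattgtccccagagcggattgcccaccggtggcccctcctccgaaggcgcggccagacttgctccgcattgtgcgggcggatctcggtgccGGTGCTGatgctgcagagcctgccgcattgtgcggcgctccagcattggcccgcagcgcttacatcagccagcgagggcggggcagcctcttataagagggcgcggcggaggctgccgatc
Elavl3: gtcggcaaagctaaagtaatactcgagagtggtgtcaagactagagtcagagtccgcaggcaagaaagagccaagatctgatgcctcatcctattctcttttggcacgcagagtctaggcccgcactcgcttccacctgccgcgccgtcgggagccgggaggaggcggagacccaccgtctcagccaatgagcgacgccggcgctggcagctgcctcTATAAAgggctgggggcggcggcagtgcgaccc
Chga: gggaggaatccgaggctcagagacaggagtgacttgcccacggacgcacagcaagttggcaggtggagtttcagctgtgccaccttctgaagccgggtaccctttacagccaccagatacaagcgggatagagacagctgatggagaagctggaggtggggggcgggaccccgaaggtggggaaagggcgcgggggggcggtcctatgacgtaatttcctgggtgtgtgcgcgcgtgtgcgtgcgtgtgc
Chgb: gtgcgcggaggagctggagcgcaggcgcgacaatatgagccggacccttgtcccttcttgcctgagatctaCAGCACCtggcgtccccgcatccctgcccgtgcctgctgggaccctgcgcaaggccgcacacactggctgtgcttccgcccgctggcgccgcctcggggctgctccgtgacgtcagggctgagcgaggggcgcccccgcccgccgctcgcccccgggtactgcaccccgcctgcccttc
Stmn3: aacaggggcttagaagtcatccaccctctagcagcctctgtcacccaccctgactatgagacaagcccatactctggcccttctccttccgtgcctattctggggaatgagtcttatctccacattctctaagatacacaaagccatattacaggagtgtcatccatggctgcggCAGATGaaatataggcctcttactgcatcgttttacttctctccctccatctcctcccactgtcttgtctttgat
The left part of RE1 begins 121 bases before the RefSeq start of Tubb3 and 179 bases before that of Chgb. The GENCODE M21 annotation used for gene lengths places these starts elsewhere. There Chgb begins at 132781278, so its printed window lies inside the gene, and Tubb3 begins at 123411424, within its window. A TATA box begins 33 bases before the start of Elavl3, an E-box 75 bases before that of Stmn3, and Chga has no match. The whole RE1 consensus was found in no window of the 26 genes and in 0.00609% of all 32851 promoters. A window with at most 2 mismatches over the 16 letters compared was found in 0.0578% of promoters, among them that of Syn1. CAGCACC was found in 5 of the 26 genes (Chgb, Nlgn1, Scg2, Syn1 and Tubb3) against 5.73% of all promoters, GGACAGC in 3 against 5.28%, CAGATG in 4 (Cartpt, Elavl4, L1cam and Stmn3) against 14.4%, and TATAAA in 3 (Cntn1, Dcx and Elavl3) against 12.4%. A gene was counted if any of its promoters matched, while the percentages are over single promoters, so the 2 are not on the same footing. CAGCACC and GGACAGC lie within the RE1 letters and were counted on their own.

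Disruption of Pbrm1 in hSS1 was read in tumors separate from those of hSS2, although the choice of genes does not state in which background a difference after Pbrm1 disruption counted. Pbrm1 itself was at 215, 253 and 224 CPM in hSS1 Pbrm1-fl replicates 1, 2 and 4. Only replicate 3, at 98.2 CPM, was within the 94.1 to 134 CPM of hSS2 Pbrm1-fl. The paper proposes that selection in hSS1 favored floxed alleles that escaped recombination. No gene of the 31 tested passed an adjusted p of 0.05 (edgeR quasi-likelihood test, Benjamini-Hochberg over all genes), in a comparison in which 0.00562% of the 17786 genes passed. At an unadjusted p under 0.05 there were 4 higher and 7 lower, 11 of 31, where 17.2% of all genes were at that level, 7.85% higher and 9.34% lower. The fitted log2 differences, Pbrm1-fl minus control, were -5.16 ± 1.22 (SE; n = 4 and 5) for Tubb3, -5.80 ± 1.32 for Dcx, -5.75 ± 1.74 for Elavl3 and -5.78 ± 1.82 for Chga, with adjusted p between 0.121 and 0.187. Each of these differences rests on controls 1, 2 and 3, since controls 4 and 5 were at 5.24 CPM or less for all 4 genes. With the DESeq2 Wald test, 7 of the 31 passed (2 higher, 5 lower) where 6.66% of all genes did. Against the 3 controls of the same mouse number range 0 passed in edgeR, and the median log2 difference of the 31 went from -0.31, with 13 above 0, to 0.32, with 18 above 0. In the DESeq2 test the higher ones were Lypd6b and Ncam1, and the lower ones Tubb3, Dcx, Gap43, Elavl3 and Chga.

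Ncam1 and Lypd6b were the genes whose hSS1 groups did not overlap, 2 of 31 where 7.12% of all genes tested had no overlap in either direction and 3.53% in the upward direction, a share near that background. Ncam1 was at 168, 272, 191, 329 and 359 CPM in the controls and at 855, 701, 395 and 721 CPM in Pbrm1-fl, a log2 difference of 1.32 ± 0.29 (SE) with an adjusted p of 0.121. Lypd6b, a membrane protein that modulates nicotinic acetylcholine receptors, was at 2.41, 9.05, 8, 7.79 and 5.78 CPM in the controls and at 35.1, 32.3, 17 and 18.7 CPM in Pbrm1-fl, a log2 difference of 1.95 ± 0.39 with an adjusted p of 0.111. Both were higher in 4 of 4 Pbrm1-fl tumors than in any control without passing the adjusted threshold. The fibroblast marker sum was at 5341, 6422, 4301 and 2091 CPM in Pbrm1-fl against 1435, 2166, 2627, 500 and 615 CPM in controls. It was mostly higher in Pbrm1-fl, but the groups overlap, with 2091 CPM below the control sums of 2166 and 2627 CPM. The part of the fibroblast sum in the Ncam1 and Lypd6b values was not tested.

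The hSS1 Pbrm1-fl replicate 3, which had the least Pbrm1, differed from the other 3 in several genes, named here after their values were seen. Nlgn1, a postsynaptic partner of neurexins, was at 47.1 CPM in replicate 3 and at 1.17, 0.181 and 9.98 CPM in replicates 1, 2 and 4. Cadm2, a synaptic adhesion protein, was at 14.6 CPM, and Cadps, which primes dense-core vesicles for release, at 11.1 CPM, where the group medians were 1.03 and 1.21 CPM. For Cadps the highest hSS1 control was at 11.25 CPM. Mapt reached 144 CPM against a group median of 43.5 CPM. Syn1, a vesicle gene, went the other way, at 1.48 CPM with the others at 3.36 to 3.83 CPM. The relation of these values to Pbrm1 rests on 1 tumor and was not tested. Without this tumor the hSS1 log2 difference of Cadm2 went from 1.67 to -0.67 and that of Cadps from -0.60 to -2.48, so their direction or size in hSS1 depends on it.

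In hSS2 tumors, where the comparison with Pbrm1-fl was used in choosing the genes, 13 of the 36 tested passed the adjusted threshold, and 7.35% of the 20083 genes did. The 13 were 8 higher, where 3.4% of all genes were called higher, and 5 lower, where 3.95% were called lower. DESeq2 also called 13, where it called 10.8% of all genes. Those higher were Ina, Nefm, Nefh, Kcns1, Cacna2d3, Cadm2, Cadps and Stmn2, and those lower were Lrrtm1, Pcp4, Dcx, Stmn3 and Uchl1.

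All 3 intermediate filament genes tested were higher in Pbrm1-fl. Ina, the alpha-internexin of early axons, was at 5.72 to 37.1 CPM (median 21.3) in the 8 Pbrm1-fl tumors and at 1.34 to 13 CPM (median 6.79) in the 13 controls, a log2 difference of 1.58 ± 0.33 (SE). Nefm, the medium neurofilament, had a median of 1.22 CPM (0.256 to 4.96) against 0.106 CPM (0 to 0.308), with a log2 difference of 3.63 ± 0.57. Nefh, the heavy neurofilament, had a median of 1.82 CPM (0.869 to 4.65) against 0.524 CPM (0.136 to 1.98), with a log2 difference of 1.6 ± 0.42. Nefm stayed low in absolute terms, and 19.2% of its exon length overlaps Nefl on the opposite strand, whose reads cannot be told apart where counting did not use strand.

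Among channel and receptor genes, Kcns1, a silent potassium channel subunit, was at 0.920 to 7.07 CPM (median 4.80) in Pbrm1-fl and 0.257 to 1.22 CPM (median 0.536) in controls, a log2 difference of 2.67 ± 0.48, with 7 of 8 tumors above every control. Cacna2d3 was the gene whose groups did not overlap, 1 of 36 where 0.279% of all genes did not in either direction and 0.139% in the upward direction. The genes were picked in part on this contrast, so these shares are a description only. Cacna2d3 was at 200 to 369 CPM (median 237) in Pbrm1-fl and at 74.3 to 198 CPM (median 160) in controls, a log2 difference of 0.81 ± 0.17. In the other direction, Pcp4, a calmodulin-binding peptide of Purkinje cells, was at 0 to 2.61 CPM (median 0.642) against 0.0589 to 172 CPM (median 1.49), a log2 difference of -4.24 ± 1.17. The groups overlap for Pcp4, and its highest value came from hSS2 control replicate 3, without which it no longer passed. Pcp4 also shares 23.7% of its exon length with Igsf5 on the same strand.

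Adhesion and vesicle genes went both ways. Cadm2 had a median of 3.57 CPM (0.627 to 16.7) in Pbrm1-fl and 0.179 CPM (0.0677 to 1.01) in controls, a log2 difference of 3.68 ± 0.55, the largest upward among the 36. The control values of Cadm2 were 1 to 19 reads, with a median near the limit of 3 reads. Cadps had a median of 3.38 CPM (0.204 to 20.4) against 0.862 CPM (0.117 to 2.61), a log2 difference of 2.43 ± 0.51. Lrrtm1, a postsynaptic organizer of excitatory synapses, had a median of 0.387 CPM (0.114 to 2.86) against 2.22 CPM (0.0568 to 85.8), a log2 difference of -4.17 ± 1.16. For Cadm2 7 of 8 Pbrm1-fl tumors were above every control and for Cadps 5 of 8, while for Lrrtm1 all 8 lay within the control range.

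Microtubule regulators were divided as well. Stmn2, a stathmin of growing axons, was at 5.78 to 118 CPM (median 69.1) in Pbrm1-fl and 2.68 to 60.4 CPM (median 11) in controls, a log2 difference of 1.77 ± 0.50. Its relative Stmn3 was at 0.128 to 1.49 CPM (median 0.277) against 0.454 to 17.8 CPM (median 1.54), a log2 difference of -2.45 ± 0.78. Dcx had a median of 0.455 CPM (0.0545 to 4.77) against 3.27 CPM (0.170 to 27.9), a log2 difference of -2.74 ± 0.85, and Uchl1 a median of 25 CPM (5.87 to 37.8) against 50.9 CPM (24.4 to 190), a log2 difference of -1.50 ± 0.41. Stmn2 and Stmn3 thus differed in opposite directions in the same tumors.

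The remaining 23 tested genes did not pass. Mapt (0.84 ± 0.30), Syp (0.64 ± 0.24), Nrxn2, a presynaptic neurexin (0.72 ± 0.34), and Elavl3 (1.09 ± 0.52) had log2 differences above 0, and Ncam1 (-0.76 ± 0.30) one below 0. The 4 peptide and granin genes were within 1.09 of 0 on the log2 scale, from -1.09 for Chgb to 0.69 for Cartpt. Nxph4, highest per kilobase, was at 126 to 172 CPM (median 144) against 58.7 to 220 CPM (median 107). Over the 36 tested, picked in part on this contrast, the median log2 difference was 0.51, and over all 20083 genes it was -0.0042.

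**Figure D4:**
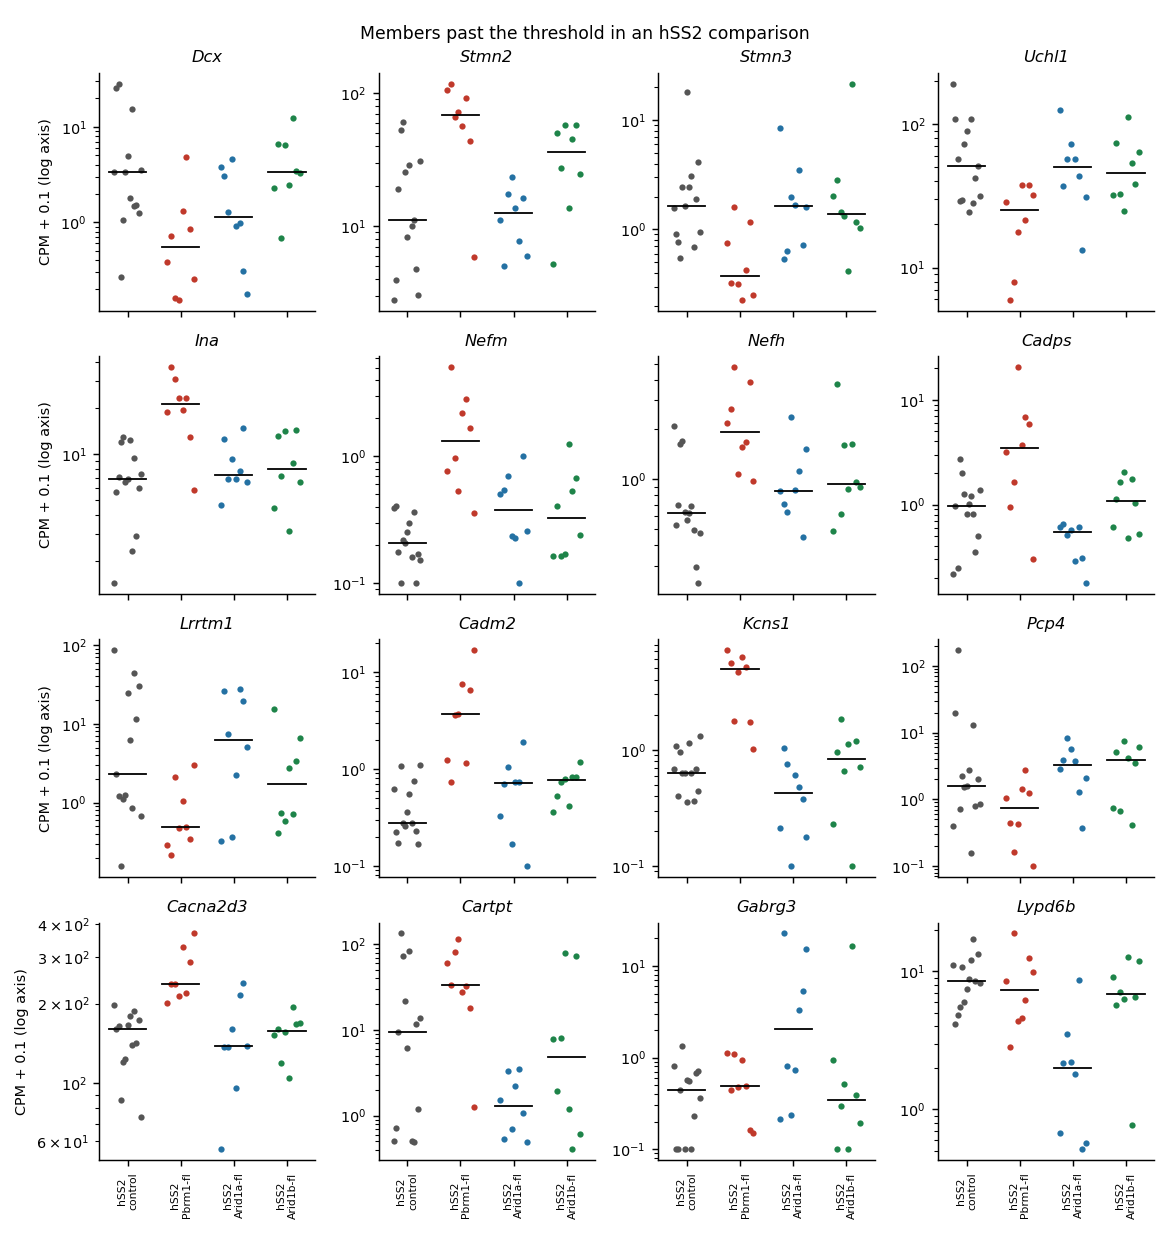
CPM + 0.1 on a log axis for the 16 genes that passed in the Pbrm1-fl or Arid1a-fl comparison in hSS2, each point 1 tumor and each black line a group median. Ina, Kcns1, Cadm2, Cacna2d3 and Nefm have their highest medians in Pbrm1-fl, and Lypd6b and Cartpt have their lowest medians in Arid1a-fl.

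Against the 4 controls of the same mouse number range, 5 genes passed in place of 13, where 2.38% of all genes did: Cadm2 (log2 difference 3.46) and Nefm (3.28) higher, and Dcx (-3.76), Pcp4 (-5.77) and Uchl1 (-2.03) lower. The log2 differences of Ina (1.70), Kcns1 (2.55), Cadps (2.41), Cacna2d3 (0.78), Stmn2 (1.79) and Lrrtm1 (-4.65) kept their direction and close to their size without passing. Stmn3 went from -2.45 to -0.67 and Nefh from 1.6 to 0.93. Ncam1 went from -0.76 to 0.03, and its control medians were 387 CPM under 1000, 389 CPM from 1000 to under 2000 and 185 CPM at 2000 and over. Between the controls of the highest and the lowest range, 0 of the 36 passed (1.75% of all genes did), and 7 higher and 3 lower reached an unadjusted p under 0.05 in edgeR, where 18.4% of all genes did, 9.67% higher and 8.73% lower.

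Of the 16 peripheral neuron markers, 9 were tested in hSS2 Pbrm1-fl tumors, and 3 passed upward (Isl1, Pou4f1 and Slc18a3), where 3.4% of all genes did. Their sum over the 16 was 84.4 to 326 CPM (median 178) in Pbrm1-fl and 54.9 to 165 CPM (median 104) in controls, and the groups overlap. Th, Dbh and Scn11a had medians under the detection limit in both groups. Schwann cell markers summed to 80.1 to 192 CPM (median 132) against 76.4 to 190 CPM (median 98.5). The part of these markers in the neuronal values was not tested.

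In Arid1a-fl tumors, also used in choosing the genes, 3 of 36 passed, and 3.17% of all genes did (1 higher and 2 lower, beside 1.41% and 1.76% of all genes). Gabrg3, a GABA-A receptor subunit, was at 0.114, 22.6, 0.712, 0.135, 0.635, 3.17, 5.20 and 15.1 CPM in replicates 1 to 8 and at 0 to 1.25 CPM in controls, a log2 difference of 3.90 ± 0.96. The 4 highest Arid1a-fl tumors were above every control and the others were not, and without replicate 2 or replicate 8 it did not pass. Cartpt, an appetite-regulating neuropeptide, was at 0.394 to 3.43 CPM (median 1.20) against 0.394 to 134 CPM (median 9.42), a log2 difference of -4.20 ± 1.18, and all 8 tumors lay within the control range. Lypd6b was at 0.416 to 8.50 CPM (median 1.90) against 4.07 to 17.1 CPM (median 8.47), a log2 difference of -1.94 ± 0.48, with 7 of 8 tumors below every control. The count of 3 is small and moved with single tumors: it was 0 without Arid1a-fl replicate 2 or 8, 1 without Arid1a-fl replicate 1, 5 or 7, and 5 without Arid1a-fl replicate 6. Leaving out hSS2 control replicate 9, as labelled, kept it at 3 and gave 11 for Pbrm1-fl.

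Of the 36 genes, 25 had log2 differences below 0 in Arid1a-fl, including all 8 of the microtubule and growth cone group, in the contrast partly used in choosing them. The median was -0.46, beside -0.043 over all genes, and against the 5 controls of the same mouse number range 18 lay above 0 and 18 below, with a median of -0.0090. The largest of these 8 in size were Dcx (-1.92 ± 0.80), Gap43 (-1.21 ± 0.64) and Map2, a dendritic microtubule protein (-0.95 ± 0.35), none of which passed. Nxph4 was at 133 to 207 CPM (median 191) against 58.7 to 220 CPM in controls, a log2 difference of 0.61 ± 0.18 that passed with DESeq2, which called 4 of the 36 and 8.44% of all genes, and not with edgeR. Against the 5 controls of the same mouse number range Lypd6b alone passed (log2 difference -2.34), where 7% of all genes did. Gabrg3 had a log2 difference of 4.10 there, and that of Cartpt went from -4.20 to -1.95, its median in those controls being 1.08 CPM.

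Arid1b-fl tumors were compared with the same 13 controls as Pbrm1-fl and Arid1a-fl, in a contrast that was not used in choosing the genes. None of the 36 passed (edgeR, adjusted p; 0.0548% of all genes did), and none did with DESeq2 (0.0747% of all genes). At an unadjusted p under 0.05 there were 3 higher and 1 lower, where 6.22% of all genes were at that level, 2.74% higher and 3.48% lower. Nxph4 was at 97.4 to 274 CPM (median 162) in Arid1b-fl, a log2 difference of 0.52 ± 0.18 with an adjusted p of 0.647. Nefm had a log2 difference of 1.43 ± 0.61 (adjusted p = 0.749) and Pcp4 one of -2.18 ± 1.03 (adjusted p = 0.791). The median of Pcp4 was 3.74 CPM in Arid1b-fl and 1.49 CPM in controls, and without hSS2 control replicate 3, at 172 CPM, its log2 difference was -0.05. Gabrg3 had a log2 difference of 2.53 ± 0.95 (adjusted p = 0.697), which came from replicate 6 at 16.6 CPM, with the other 7 tumors at 0 to 0.834 CPM.

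The signs of the Pbrm1-fl differences in hSS1 and hSS2, which share no tumors, were the same for 15 of the 31 genes tested in both, or 48.4%, and for 51.5% of the 17643 genes tested in both. Cacna2d3 was higher in both (1.16 ± 0.46 in hSS1, adjusted p = 0.253) and Dcx lower in both. Ncam1, Lypd6b, Tubb3 and Elavl3 had opposite signs in the 2 backgrounds, though the hSS2 difference of Lypd6b (-0.12 ± 0.44) was smaller than its SE. Against controls of the same mouse number range, Ncam1 (0.03 in hSS2, 1.16 in hSS1) and Lypd6b (0.38 and 1.82) had the same sign. Tubb3 (0.15 and -4.43) and Elavl3 (1.19 and -4.83) kept opposite signs there. Whether the effects differ between the backgrounds was not tested. Median Pbrm1 was 219.5 CPM in hSS1 Pbrm1-fl (343 in controls) and 99.5 CPM in hSS2 Pbrm1-fl (255 in controls). The background and the extent of Pbrm1 loss therefore cannot be told apart.

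**Figure D5:**
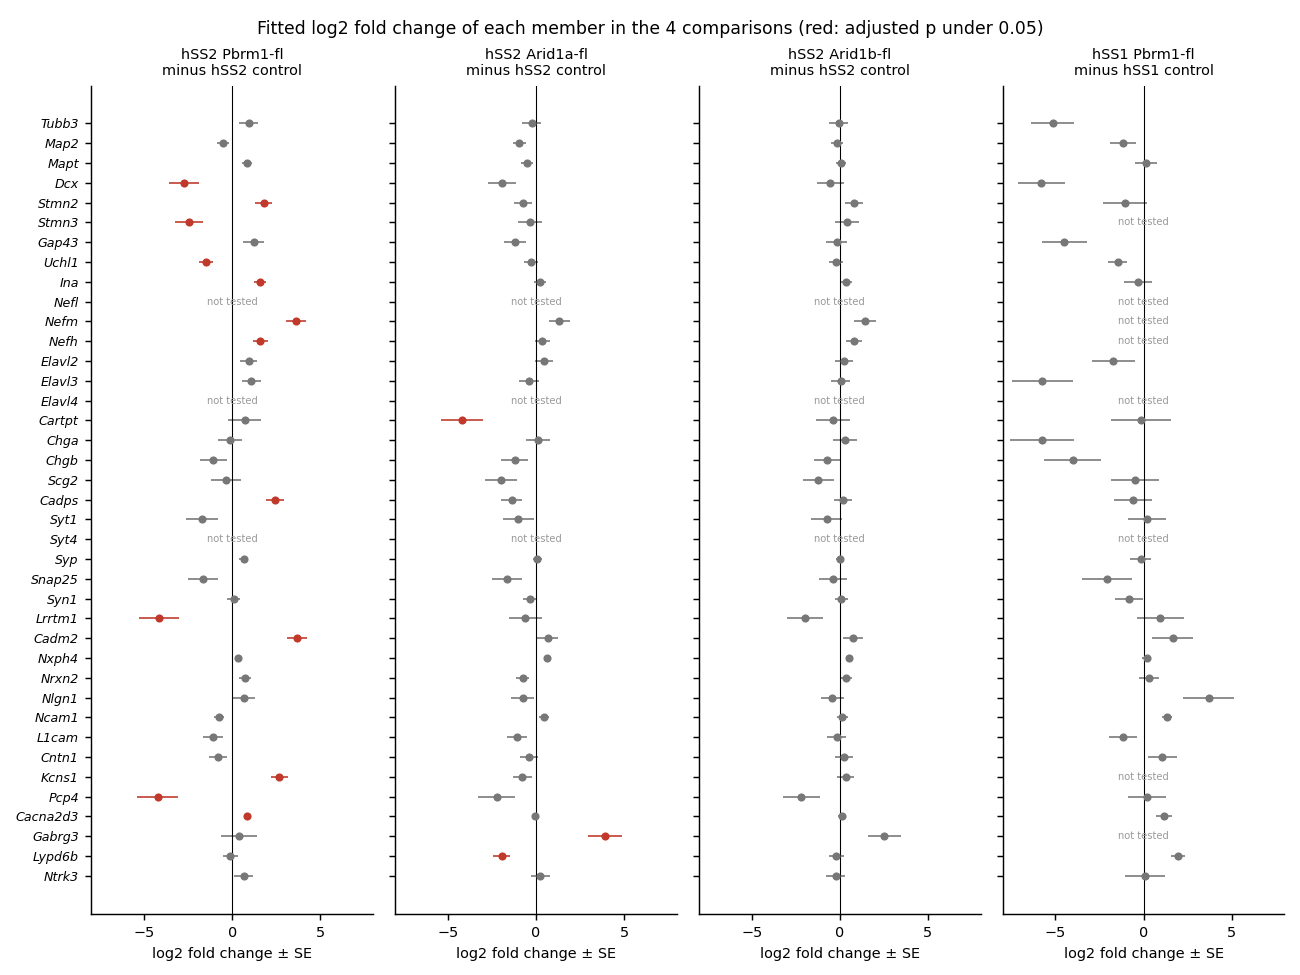
Log2 fold difference (floxed minus control) with its standard error for each gene tested, in the 4 comparisons, red where the adjusted p was under 0.05. In hSS2 13 genes are red for Pbrm1-fl and 3 for Arid1a-fl, in Arid1b-fl and hSS1 Pbrm1-fl 0 are, and the longest error bars belong to hSS1.

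Across the 37 hSS2 tumors, with each group's mean removed, the 39 genes did not rise and fall as 1 program. The 741 pairs had a median Spearman correlation of 0.084, with 26 pairs over 0.5 and 7 under -0.5. The closest pairs were Snap25, a SNARE protein of the presynaptic membrane, with Chgb (0.79), Ina with Stmn2 (0.74), Cartpt with the axonal adhesion protein L1cam (0.70) and Chga with Chgb (0.70). Lrrtm1 went against Stmn2 (-0.66) and Ina against Uchl1 (-0.67). These tumors share a count table and differ in depth and in content of other cells. L1cam correlated with the summed Schwann (0.79), fibroblast (0.71) and muscle (0.63) markers, and Cacna2d3 with the macrophage markers (-0.68), values that stand beside the correlations of L1cam and Cacna2d3 with other genes and whose part in them was not tested.

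Single tumors held the extremes of several genes. The hSS2 control replicate 3 was the highest of all 46 tumors for Pcp4 (172 CPM), Scg2 (126 CPM), and Syt1, the calcium sensor of fast transmitter release (58.4 CPM). The hSS1 control replicate 2 was the highest of 46 for 9 of the 39 genes.

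From 150 other neuronal genes in 7 lists, 129 were tested in hSS2 and 117 in hSS1. In Pbrm1-fl hSS2 tumors 12 passed, 8 higher and 4 lower, where 7.35% of all genes did, 3.4% higher and 3.95% lower. Those higher included Nlgn2, an adhesion protein of inhibitory synapses (log2 difference 0.51 ± 0.12), the vesicle protein Sv2c (1.57 ± 0.44), the priming factor Unc13a (1.30 ± 0.38) and the sensory neuron factor Pou4f1 (1.64 ± 0.49). The 4 lower were Sv2b (-2.78 ± 0.64), Ebf3 (-1.23 ± 0.30), the glutamate receptor subunit Gria1 (-5.62 ± 1.38) and the splicing factor Rbfox2 (-0.35 ± 0.11). In Arid1a-fl those that passed included Rcor2, Myt1l and Sv2c upward and the vesicle release genes Vamp1 and Cplx2 downward, and the Myt1l difference of 3.29 came from replicate 1 at 52.2 CPM. In Arid1b-fl and in hSS1 Pbrm1-fl 0 passed, with 9 and 24 at an unadjusted p under 0.05, of which 20 in hSS1 were lower, beside 6.22% of all genes in Arid1b-fl and 17.2% in hSS1, where 9.34% were lower. Over the 129 the median log2 difference was -0.056 in Pbrm1-fl and -0.28 in Arid1a-fl, and over the 117 in hSS1 it was -0.27.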

How the data were processed

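Whole tumors were profiled by RNA-seq, 1 library per tumor. The authors made stranded libraries after ribosomal RNA depletion, and the submitters' processing notes name alignment to mm10 with STAR 2.7.11 and featureCounts 1.6.3. The annotation release, the strand setting and the treatment of multimapping reads are not given in the sources used here. The values deposited by the authors are raw counts per Ensembl gene, in a table for hSS2 and another for hSS1, so levels were tested only within a table. Symbols, lengths and exon overlaps came from GENCODE M21 on the mm10 build.

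CPM was the count over the library total, and RPKM divided it further by exon length. Genes were kept by filterByExpr, scaled by TMM and tested with edgeR 4.0.16 in R 4.3.3 (robust quasi-likelihood test, two-sided, all tumors of a table in a fit, Benjamini-Hochberg over all tested genes, threshold 0.05). The study used the DESeq2 Wald test, run here as an alternative (DESeq2 1.42.0), along with RLE scaling, no filter, a threshold of 0.01, the compared groups alone, controls of the same mouse number range, and each tumor left out in turn. A pseudocount of 0.1 CPM was used for figures, correlations and the search for tumors standing apart. The tests were checked on simulated counts with 200 changed genes. Intervals were not given for single tumors, and the limit of 3 reads covers counting error only. No 2 libraries of a group agreed within sampling noise. Mouse numbers separate the animals, so p-values measure the spread between tumors.

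The genes and lists were chosen with earlier results of these data known. All 39 were accounted for, and values were given in full for those past the threshold, those past it against controls of the same range, the 6 highest per kilobase and those with a tumor standing apart. Other neuronal genes were named where they passed, at most 4 in each direction. Further names were chosen after their values were seen. A result for 1 gene of the other neuronal lists is not reported here.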

Additional observations from a re-analysis of the deposited data

Results flagged for a closer look

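A tumor was singled out where its gap to the nearest tumor of its group, over the range of the group, exceeded Dixon's 95% critical value on log2(CPM + 0.1). Of 195 pairs of a gene and a group examined, 12 (6.15%) were singled out, where chance gives about 1 in 20, and on unlogged CPM 40 were. The hSS2 controls were not among the groups examined.

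Several fell on the same tumors. The hSS2 Pbrm1-fl replicate 8 was low for Cartpt (1.175 CPM, the other 7 at 18.1 to 115), Stmn2 (5.775 CPM, the others at 43.5 to 118), Scg2 (0.2044 CPM, the others at 3.71 to 35.1) and the neurotrophin receptor Ntrk3 (0.6132 CPM, the others at 16.2 to 68.4). The hSS2 Pbrm1-fl replicate 3 was low for Mapt (78.49 CPM, the others at 140 to 227). The hSS2 Arid1b-fl replicate 6 was high for Gabrg3 (16.63 CPM, the others at 0 to 0.834) and low for Lypd6b (0.6727 CPM, the others at 5.64 to 12.7). The hSS2 Arid1a-fl replicate 6 was high for Snap25 (4.123 CPM, the others at 0 to 0.471).

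In hSS1, control replicate 5 was low for Map2 (5.136 CPM, the others at 82.3 to 187) and Stmn2 (0.2751 CPM, the others at 20.3 to 76.0), control replicate 2 was the only control with any Gabrg3 read (0.1631 CPM), and Pbrm1-fl replicate 3 was low for Syn1 (1.48 CPM, the others at 3.36 to 3.83).

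For Kcns1 and Ncam1 every Pbrm1-fl tumor of a background lay on the opposite side of its control median from every Pbrm1-fl tumor of the other background. Kcns1 was lower in hSS1 Pbrm1-fl (median 0.09471 CPM) and higher in hSS2 Pbrm1-fl (median 4.802 CPM), and Ncam1 was higher in hSS1 Pbrm1-fl (median 711.2 CPM) and lower in hSS2 Pbrm1-fl (median 220.5 CPM). In hSS1 Kcns1 did not pass the filter on low counts, with 0 to 6 reads in Pbrm1-fl and 3 to 20 in controls. Its hSS1 Pbrm1-fl median is under the limit of 3 reads. The difference between the backgrounds was not tested, and against hSS2 controls of the same mouse number range the Ncam1 difference was 0.03 ± 0.37 (log2, SE). Pbrm1 itself was less reduced in hSS1 Pbrm1-fl than in hSS2 Pbrm1-fl.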

How the results depend on the processing

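Of the 36 genes tested in hSS2 Pbrm1-fl, 13 passed the threshold, 12 without the filter, 10 with the 2 groups alone, 6 at an adjusted p of 0.01, 5 against controls of the same mouse number range, and 10 to 14 with single tumors left out. Stmn3 and Dcx lost the call in 16 and 12 of the alternatives, Stmn2 without Pbrm1-fl replicate 2 and Nefh without Pbrm1-fl replicate 3. Of 3 in Arid1a-fl, 0 passed at 0.01, 1 against controls of the same range, 1 with the 2 groups alone, 2 without the filter or without control replicates 4, 5, 7, 12 or 13, and 0 to 5 with single tumors left out. Cartpt lost the call in 15 alternatives, Lypd6b in 6 and Gabrg3 in 3. The count in Arid1b-fl was 0 in all alternatives run, leave-one-out 0 to 0. In hSS1 it was 0 in edgeR, leave-one-out 0 to 0, and 7 with DESeq2, which also gave 13, 4 and 0 in the hSS2 comparisons. In hSS1 the 2 groups are the whole table, so that setting adds nothing there. The share of same signs was 48.4% with RLE or DESeq2, 46.2% without the filter and 58.1% against controls of the same range, alternatives chosen after seeing the data. No paired analysis was possible because the labels give the groups no shared replicate numbers. Depth limits Nefl, Syt4, Elavl4 and Nefm, whose values in most tumors are a few reads. It also limits Cadm2 in hSS2 controls and Gabrg3, which was at 0 in 10 tumors.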

Other observations

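Other genes of the early neuronal program were high in hSS1 controls 1, 2 and 3 as well, named here after their values were seen. The transcription factors Myt1 (16.8, 31.4 and 35.3 CPM), St18 (50.6, 95.6 and 26.1 CPM) and Nhlh2 (26.6, 40.8 and 34.6 CPM), the RNA-binding protein Celf3 (26.5, 24.3 and 21.9 CPM) and the vesicle protein Syt5 (27, 18.3 and 22.2 CPM) were all detected there, and Celf3 was at 0 in controls 4 and 5. Of the 150 other neuronal genes, 30, 39 and 38 were above every hSS2 tumor in controls 1, 2 and 3, and 11 and 6 in controls 4 and 5. In Pbrm1-fl replicates 1 to 4 the counts were 8, 4, 9 and 5. Over the 17782 genes compared, the shares were 8.60%, 7.39%, 11.9%, 5.72% and 6.81% in controls 1 to 5. They were 8.86%, 9.72%, 7.05% and 3.48% in Pbrm1-fl. Those 17782 had passed the filter on low counts in hSS1, as had 117 of the 150. The epithelial marker Epcam was at 208, 93.1, 207, 5.31 and 3.30 CPM in controls 1 to 5 and at 115, 75.2, 29.7 and 10.8 CPM in Pbrm1-fl replicates 1 to 4. Among the controls it was thus high in the same 3 tumors as Tubb3 and Chga. In Pbrm1-fl replicates 1 and 2, Tubb3 and Chga were at 2.73 CPM or less. The relation of Epcam to the neuronal pattern was not tested. Controls 1 and 2 have mouse numbers of 2000 and over and control 3 one from 1000 to under 2000, the range of controls 4 and 5.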
